A study of Homo sapiens with 6 samples.

Results

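The short arm of human chromosome 19 carries, next to its centromere, a cluster of zinc finger genes in band 19p12. The 33 genes described here were chosen by name and position. The rule used none of their measured values, though earlier results of these data were known. They were 33 of the 58302 genes in the count table. On GRCh38 they lay between chr19:19668796-24129968, a span of 4.46 Mb from ZNF101 to ZNF254, with 18 genes on the plus strand and 15 on the minus strand. Of these, 19 had enough reads for a test, out of 14667 genes tested in the whole table.

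The RNA came from hTert 1BR3 cells, an established line of human forearm skin fibroblasts that telomerase keeps dividing. One group of 3 samples was transfected with non-targeting siRNAs (control siRNA) and the other group of 3 with a pool of siRNAs against MCM7 (MCM7 siRNA), a subunit of the helicase that licenses and opens replication origins. All 6 samples were serum-starved, which brings fibroblasts to rest and lets them form cilia. The labels do not say whether the samples of a group were separate cultures, so the p-values reflect only how much these samples vary, which may be technical variation.

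Most genes of this cluster encode KRAB zinc finger proteins, the largest family of human transcription factors. Their arrays of C2H2 fingers bind DNA, and their KRAB domain recruits TRIM28, which brings SETDB1 and HP1 proteins and so lays repressive chromatin on the target. Many targets are transposable elements: ZNF91 represses SVA elements and ZNF93 represses LINE-1 elements. The family grew by repeated local duplication, so that neighbouring genes resemble each other closely.

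That resemblance reached the length of a sequencing read. The reads were 50 nt long and only uniquely mapping reads were kept, so that sequence held by several genes bears on what could be counted. The windows below are among the coding 50-nt stretches that the most members shared exactly, read from the annotated transcripts. Several windows were tied at 4 members, and the third is one that ZNF253 carries. All are written as they stand in ZNF253, at chr19:19891991-19892040, chr19:19878491-19878540 and chr19:19892579-19892628 on the plus strand of GRCh38. Capitals mark the codons of the linker TGEKPY between neighbouring fingers, or a short match to the KRAB domain (DVAIEF).
Linker window shared by 15 members: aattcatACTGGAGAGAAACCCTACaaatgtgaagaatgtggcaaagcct
KRAB window shared by 6 members: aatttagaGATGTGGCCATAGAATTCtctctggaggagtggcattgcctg
Linker window shared by 4 members: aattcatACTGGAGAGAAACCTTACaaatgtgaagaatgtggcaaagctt
The first window stood at 22 places in the 15 members and in 22 genes in all. ZNF208, with the longest array of fingers, carried it 7 times. The KRAB window was held by ZNF253, ZNF506, ZNF626, ZNF66, ZNF90 and ZNF93.

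Over the whole transcript, the share of 50-nt windows that also occurred in a gene elsewhere was modest for most members. The median was 4.82% over the 33 genes, and 29 of them were under 10%. ZNF14 had none. The 4 genes over 10% were ZNF98 with 58.1%, ZNF492 with 33.6%, ZNF66 with 19.1% and ZNF676 with 10.8%. ZNF98 and ZNF492 were each other's main partner: 1241 of the 2289 windows of ZNF98 also stood in ZNF492. Coding sequence was shared more than the rest of the transcript, with a median of 8.94% against 3.02%, and the coding share was the higher one in 27 members. The 19 tested members had a median of 4.75% and the 14 others 5.85%. A window repeated only within the same gene was not counted as shared, though its reads do not map uniquely either.

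The members also had a common layout. A 4-exon transcript was annotated for 27 genes, a 5-exon one for 5 and a 3-exon one for ZNF676. The proteins were 375 to 1280 residues long and held 5 to 36 C2H2 fingers, with a median of 13, counted by the spacing of the cysteines and histidines (C, 2 residues, C, 12 residues, H, 3 to 5 residues, H). ZNF208 had the most fingers, 36, followed by ZNF91 with 31, and ZNF738 had the fewest, 5. A KRAB pattern was found in 29 proteins, and ZNF714, ZNF738, ZNF676 and ZNF492 had no match to it. The promoters of the 27 members matched in the RefSeq table (250 bases before to 50 after the start, GRCh38) held 8 to 18 CpG dinucleotides, with a median of 10, against 14 over the 35116 promoters of the table.

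The libraries held 13721281 to 23969024 counted reads, and the smallest was MCM7 siRNA replicate 1. The knockdown was visible in the counts: MCM7 stood at 29.4 ± 1.996 CPM (CPM, reads per library scaled to a common depth, ± SD, n = 3) in the control libraries and at 3.34 ± 0.17 CPM in the MCM7 siRNA libraries, 11.4% of control. All 10 fibroblast markers were expressed, with a median of 524 RPKM (deposited values, scaled for gene length and library size), and 5 of them were called in the comparison, 3 higher and 2 lower. This is 50%, against 12.8% over all tested genes. The 2 shares cover unlike levels, with a median of 4158 CPM over the markers and 13.5 CPM over all tested genes. Of 16 markers of other skin and blood cells, 14 had too few reads for a test, and KRT5, KRT1, TYR and CD3E had no read. The highest was KRT10 with 7.59 to 10.5 CPM, and the summed level of the 16 was 9.54 to 11.5 CPM in the control and 9.06 to 12.1 CPM in the MCM7 siRNA libraries. The part of other cells in the values below was not tested. In bulk RNA, fewer cells that express a gene and less RNA per cell cannot be told apart.

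The whole cluster was weakly expressed in these fibroblasts. Its 33 genes received 485, 486 and 488 reads in the samples given control siRNA. In those given MCM7 siRNA they received 328, 519 and 549. Scaled for depth, their summed level was 24.4 ± 1.49 CPM in the control and 24.1 ± 1.24 CPM in the MCM7 siRNA group (SD, n = 3 each), and the ranges of both groups overlapped. No member reached 1 RPKM in the mean of the 6 libraries. The median of the 19 tested members was 0.177 RPKM, against 3.13 RPKM over all tested genes, and only 12.3% of tested genes lay below the highest member.

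**Figure D1:**
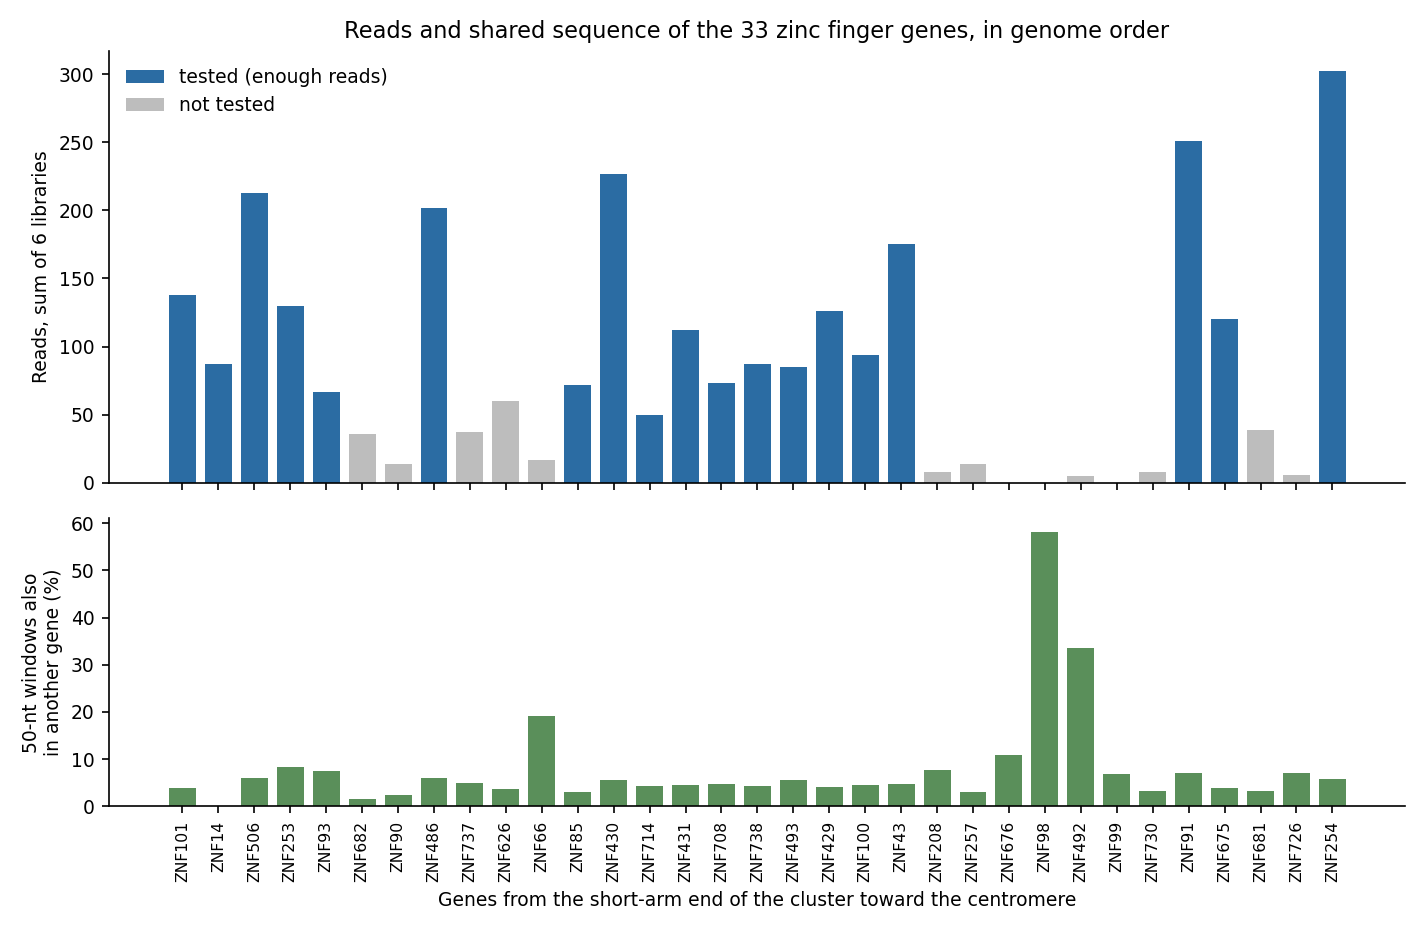
Reads of each of the 33 members summed over the 6 libraries (upper bars, blue where the gene was tested) and the share of its 50-nt windows that also occur in another gene (lower bars, in %), with the genes in genome order. The 7 neighbouring genes from ZNF208 to ZNF730 have 35 reads together, and the tallest lower bars belong to ZNF98 with 58.1% and ZNF492 with 33.6%.

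Reads were uneven along the cluster. The 7 consecutive members ZNF208, ZNF257, ZNF676, ZNF98, ZNF492, ZNF99 and ZNF730, at chr19:21932958-23147221 (1.21 Mb), received 35 of the 2855 reads of the cluster, and none of them could be tested. ZNF676, ZNF98 and ZNF99 had no read in any library. For each of these 3 genes a count of 0 allows a level of up to 0.0501 CPM in the control and 0.0517 CPM in the MCM7 siRNA group (3 counts over the group, counting error only). This bound takes all reads of a gene as countable. Of the windows of ZNF98 58.1% also occur elsewhere, and of those of ZNF676 10.8%, so their levels could be higher. The other 26 members had 6 to 302 reads each and 19 of them were tested. Shared windows made up 3.11% to 58.1% of the transcripts in the quiet stretch, with a median of 7.62%, against a median of 4.69% outside it, and their part in the low counts was not tested.

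The other members with too few reads for the test were ZNF626 with 60 reads in all, ZNF681 with 39, ZNF737 with 37, ZNF682 with 36, ZNF66 with 17, ZNF90 with 14 and ZNF726 with 6. Within the quiet stretch, ZNF257 had 14 reads, ZNF208 and ZNF730 had 8 each and ZNF492 had 5. For ZNF626, the most read of them, 35 reads in the control group gave 0.584 CPM (95% exact Poisson interval 0.407 to 0.813) and 25 reads in the MCM7 siRNA group gave 0.431 CPM (0.279 to 0.636). These intervals overlapped. They cover counting error only and leave out the spread between libraries. ZNF626 had 18, 10 and 7 reads in the control and 7, 7 and 11 in the MCM7 siRNA libraries. The libraries also carry no molecular identifiers.

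Levels can be ordered between genes only per length, for which the deposited RPKM served. The order depends on the 1 length per gene behind these values. That length was 7602 nt for ZNF254 and 6845 nt for ZNF430, where the transcripts used above had 4089 and 3886 nt. For ZNF486 it was 4261 nt against 3895 nt, so another choice of lengths could change the order. By the deposited values ZNF486 was the highest member. It had 0.541, 0.303 and 0.318 RPKM in the control and 0.445, 0.525 and 0.323 RPKM in the MCM7 siRNA libraries. ZNF254, also described as a bone marrow zinc finger gene, followed with 0.366, 0.333 and 0.326 RPKM in the control and 0.268, 0.347 and 0.357 RPKM in the MCM7 siRNA libraries. The groups overlapped for both genes. ZNF253, another bone marrow zinc finger gene, had 0.355, 0.315 and 0.361 RPKM in the control and 0.301, 0.219 and 0.276 RPKM in the MCM7 siRNA libraries, and here the groups did not overlap. ZNF430 had 0.282, 0.326 and 0.266 RPKM against 0.287, 0.305 and 0.232 RPKM. ZNF14 came next with 0.327, 0.151 and 0.222 RPKM against 0.173, 0.388 and 0.226 RPKM. Over the 6 libraries the means were 0.409 ± 0.109 RPKM for ZNF486, 0.333 ± 0.035 for ZNF254, 0.305 ± 0.053 for ZNF253, 0.283 ± 0.033 for ZNF430 and 0.248 ± 0.091 for ZNF14 (SD, n = 6). Each of these neighbours in the order differed by less than the larger of their SDs.

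**Figure D2:**
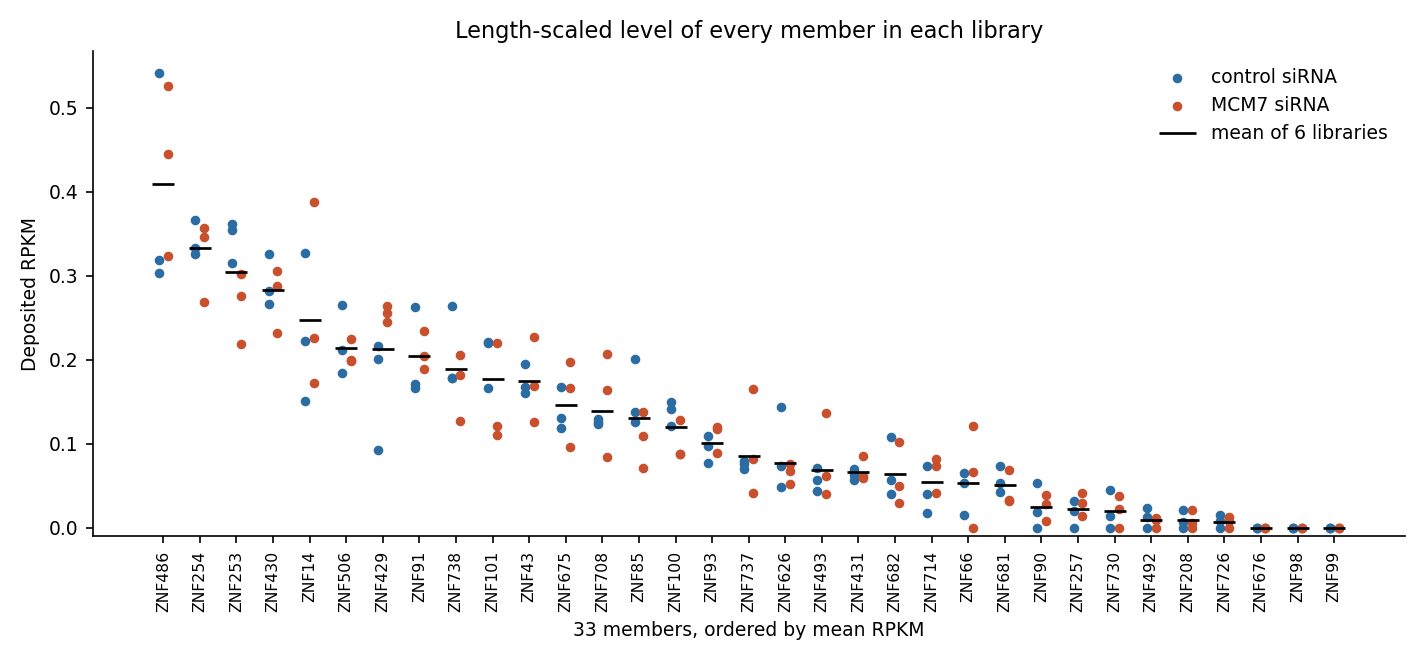
Deposited RPKM of each of the 33 members in the 3 control siRNA libraries (blue) and the 3 MCM7 siRNA libraries (red), with a black line at the mean of the 6 libraries, ordered by that mean. ZNF486 leads with a mean of 0.409 RPKM, the points of neighbouring genes overlap, and ZNF676, ZNF98 and ZNF99 lie at 0.

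The main comparison asked whether any gene of the cluster differed between resting fibroblasts with normal and with reduced MCM7 RNA. None of the 19 tested members was called at an adjusted p under 0.05, in either direction (edgeR quasi-likelihood test, Benjamini-Hochberg over all tested genes). Over all genes 12.8% were called. Members were read much less than the average gene, however, and among the 3223 tested genes with a mean level in the range of the members (0.440 to 2.53 CPM) 2.76% were called. A count of 0 in 19 is close to that share. At an unadjusted p under 0.05 there was 1 member, ZNF429, and the adjusted p-values ran from 0.178 to 0.905. DESeq2 called none either: it gave an adjusted p for 5 members, the smallest 0.862, and none for the other 14.

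**Figure D3:**
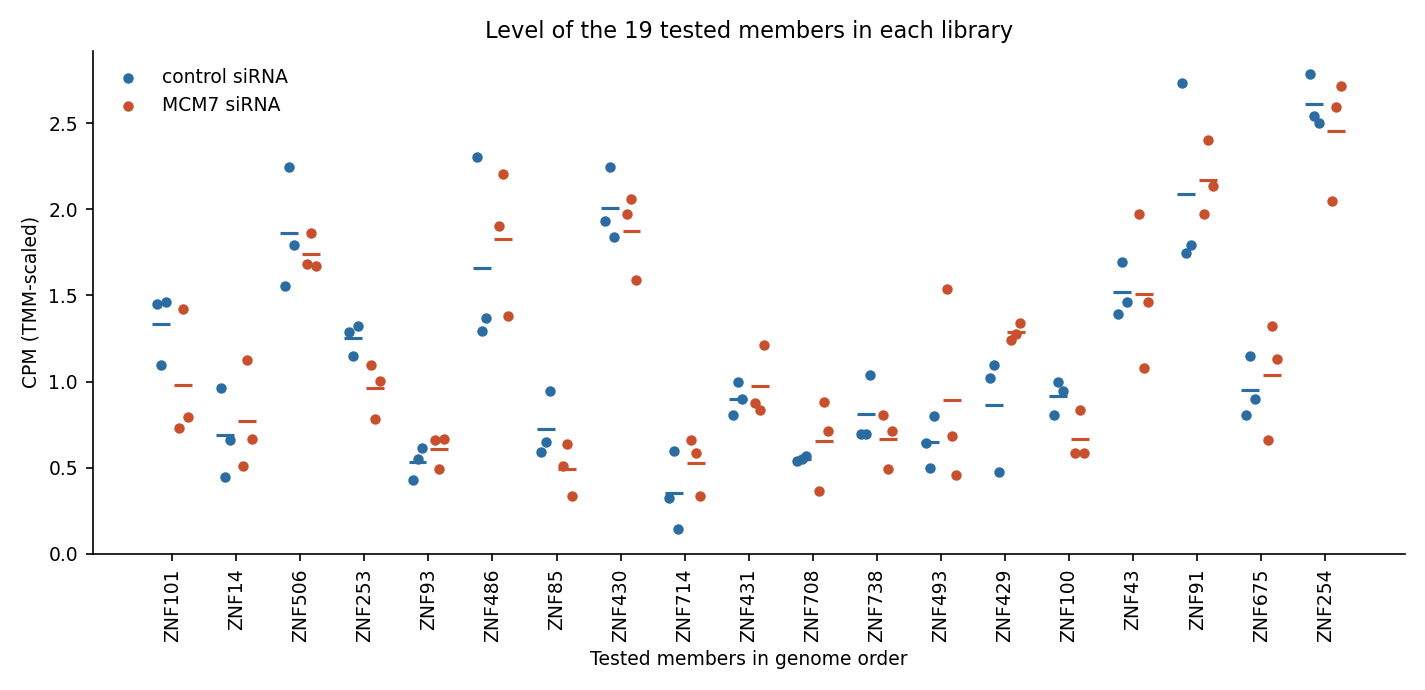
Level of the 19 tested members in CPM in each of the 3 control siRNA libraries (blue points) and 3 MCM7 siRNA libraries (red points), in genome order, with a line at each group mean. The groups overlap for 17 genes. ZNF253 and ZNF429 are the exceptions.

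The control and MCM7 siRNA libraries did not overlap for 2 of the 19 members, which were ZNF429 and ZNF253. Over all tested genes 29.6% did not overlap, and in the range of the members' levels 16.5% did not. ZNF429 had 1.02, 1.10 and 0.472 CPM in the control and 1.24, 1.27 and 1.34 CPM in the MCM7 siRNA libraries, from 19, 22 and 10 against 17, 26 and 32 reads. Its 3 MCM7 siRNA libraries lay close together, and control replicate 3 lay far below the other two. The log2 fold change was 0.60 ± 0.28 (SE), or 1.51-fold, with a 95% interval of 0.016 to 1.18 and an adjusted p of 0.178. Without control replicate 3 it was 0.28, with an adjusted p of 0.642. The gene span of ZNF429 overlaps the non-coding gene LINC00664 on the same strand, which had 2 reads in all.

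ZNF253 was the other such gene. It had 1.29, 1.15 and 1.32 CPM in the control libraries and 1.10, 0.784 and 1.00 CPM in the MCM7 siRNA libraries, from 24, 23 and 28 against 15, 16 and 24 reads. The lowest control library and the highest MCM7 siRNA library lay close to each other. Its log2 fold change was -0.40 ± 0.26 (SE) with an interval of -0.92 to 0.13 and an adjusted p of 0.353. Of its windows 8.30% also stood elsewhere, the highest share among the tested members, most often in its neighbour ZNF506.

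**Figure D4:**
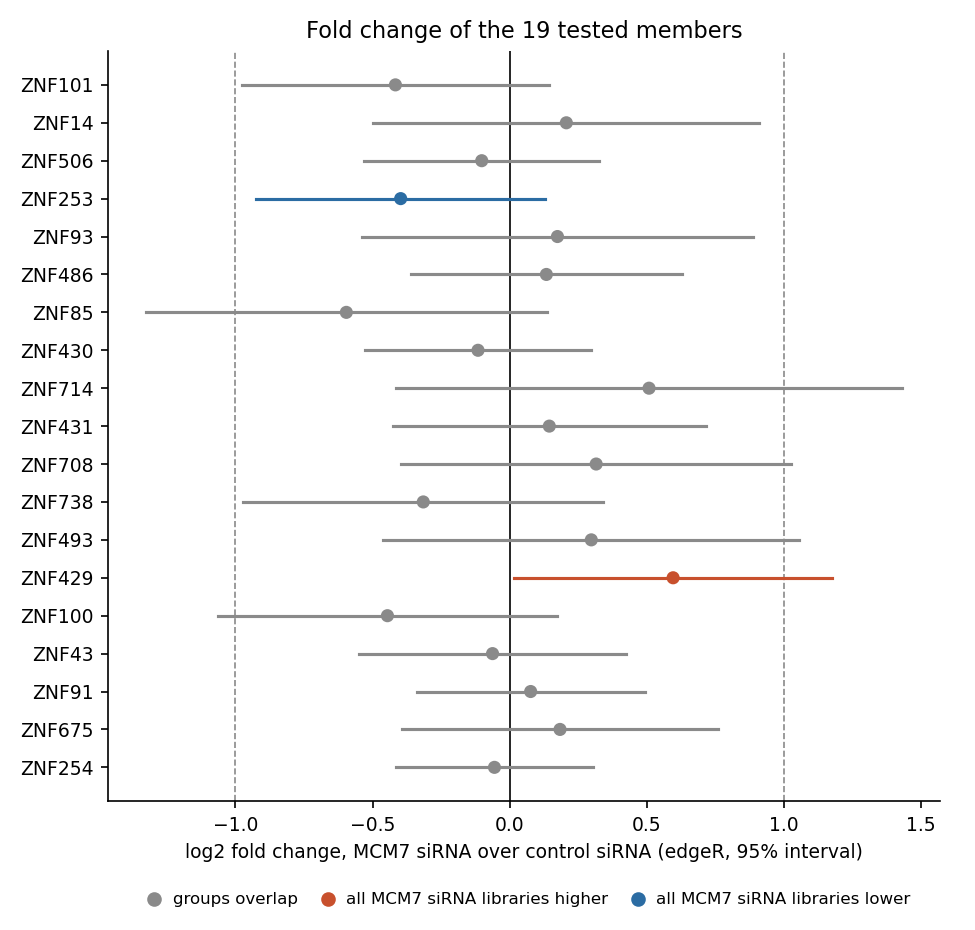
log2 fold change of each tested member, MCM7 siRNA over control siRNA, with its 95% interval from edgeR (lines), in genome order. Dashed lines mark a 2-fold change in either direction, and 18 of the 19 intervals include 0. Red and blue mark ZNF429 and ZNF253, whose groups did not overlap.

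The best known repressors of transposable elements had similar levels in both groups. ZNF91 had 2.73, 1.74 and 1.79 CPM in the control and 1.98, 2.40 and 2.13 CPM in the MCM7 siRNA libraries, and control replicate 1 was the highest of all 6. Its log2 fold change was 0.077 ± 0.20 (SE) with an interval of -0.34 to 0.49. ZNF93 stood at 0.530 ± 0.094 CPM in the control and 0.606 ± 0.1005 CPM in the MCM7 siRNA group (SD, n = 3), with a log2 fold change of 0.17 and an interval of -0.54 to 0.89. ZNF675, which binds TRAF6 and dampens its signalling, stood at 0.949 ± 0.177 and 1.04 ± 0.34 CPM. None of these 3 genes differed by more than the spread between libraries.

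The remaining fold changes were small or poorly determined. The lowest log2 fold change was -0.60 ± 0.36 (SE) for ZNF85, with an adjusted p of 0.306, from 0.590, 0.648 and 0.945 CPM in the control and 0.512, 0.637 and 0.335 CPM in the MCM7 siRNA libraries. ZNF714 had the second highest, 0.51 ± 0.45, with an interval of -0.41 to 1.43, and it was 1.13 without control replicate 2 (adjusted p = 0.224) and 0.11 without control replicate 3. Positive values belonged to 10 members and negative values to 9. The median over the 19 was 0.077, against -0.0028 over all tested genes, and over the same 19 genes it was negative without control replicate 2 (-0.012), control replicate 3 (-0.025) or MCM7 siRNA replicate 2 (-0.055). By strand, the median was 0.039 over 12 genes on the plus strand and 0.077 over 7 on the minus strand.

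The intervals say how large a change could have gone unseen. They lay within 2-fold in both directions for 13 members and within 1.5-fold for 5, which were ZNF254, ZNF91, ZNF430, ZNF506 and ZNF43. For ZNF85, ZNF714, ZNF708, ZNF493, ZNF429 and ZNF100 the interval reached beyond 2-fold in one direction. The median SE of the log2 fold change was 0.28 for the members, 0.27 for all genes in the same range of levels and 0.091 over all tested genes. For the genes with wide intervals, a change of moderate size was not detectable at this depth.

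Other genes of the KRAB pathway were set beside the members. Of 20 genes for co-repressors and their partners, 19 were tested, and 2 were called higher and none lower. This is 10.5%, close to the 12.8% over all tested genes, and the median log2 fold change was -0.0050. The 2 shares cover unlike levels, with a median of 54.0 CPM over the tested co-repressor genes and 13.5 CPM over all tested genes. DNMT1, the maintenance DNA methyltransferase, had 45.8, 44.9 and 45.4 CPM in the control and 56.2, 51.3 and 54.9 CPM in the MCM7 siRNA libraries, a log2 fold change of 0.25 ± 0.058 (SE, adjusted p = 0.00324). CBX5, which encodes the heterochromatin protein HP1 alpha, rose by 0.17 ± 0.057 (adjusted p = 0.0473, and 0.0854 in DESeq2), and its groups overlapped. TRIM28, on which KRAB proteins depend, had a log2 fold change of -0.15 ± 0.056 and an adjusted p of 0.0772. SETDB1, the histone methyltransferase of the complex, had 0.15 ± 0.077 and an adjusted p of 0.212.

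**Figure D5:**
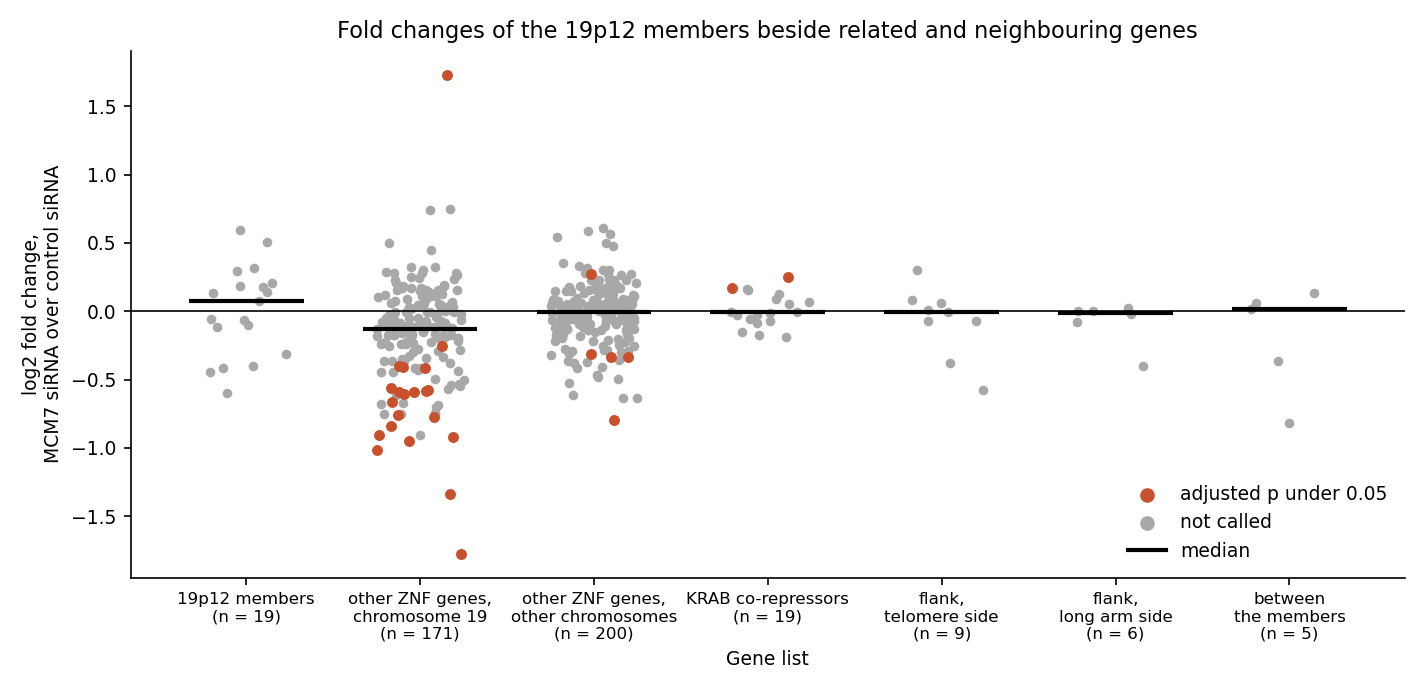
log2 fold change, MCM7 siRNA over control siRNA, of every tested gene in the 19p12 cluster and in 6 lists of related or neighbouring genes (points, red where the adjusted p is under 0.05, spread sideways only to separate them), with a bar at each median. No point of the cluster is red, and most red points of the other zinc finger genes of chromosome 19 lie below 0.

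The other zinc finger genes of chromosome 19 were counted in the same fit. Of 209 such genes, 4 of them (ZNF723, ZNF724, ZNF728 and ZNF729) inside the span of the cluster and not tested, 171 were tested. Of these, 1 was called higher and 20 lower, 12.3% in both directions together, and their median log2 fold change was -0.13. Over all 14667 tested genes 12.8% were called, 906 higher and 975 lower, so that the split by direction was more even there. How the genes called lower lay along chromosome 19 was not examined, so their count does not describe the chromosome as a whole. ZNF160 was at 17.1 ± 0.49 CPM in the control and 9.09 ± 0.35 CPM in the MCM7 siRNA group (adjusted p = 1.48e-08), ZNF468 at 3.05 ± 0.46 and 0.848 ± 0.291 CPM (adjusted p = 2.58e-06), ZNF581 at 17.2 ± 0.68 and 11.4 ± 0.72 CPM (adjusted p = 1.06e-05) and ZNF28 at 3.03 ± 0.25 and 1.22 ± 0.21 CPM (adjusted p = 2.45e-05). The gene called higher was ZNF571, with a log2 fold change of 1.73, which is named here after its value was seen. These genes also had higher levels, with a median of 0.439 RPKM over those tested, against 0.177 RPKM in the 19p12 cluster. Of the 90 that were tested in the members' range of levels, none was called higher and 6 lower, 6.67% beside the 2.76% over all genes in that range. No test compared the 2 lists. Of 237 zinc finger genes on other chromosomes 200 were tested, with a median log2 fold change of -0.0033. Among them 1 was called higher (ZNF395) and 4 lower (ZNF277, ZNF32, ZNF624 and ZNF768, the last named after its value was seen). This is 2.5%, against 12.8% over all tested genes. In the members' range of levels 61 were tested, none was called higher and 1 lower, 1.64% beside the 2.76% over all genes there.

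The immediate surroundings held no called gene, but few genes were tested there. Over all tested genes 12.8% were called, and 2.76% in the members' range of levels. Counts of 0 among so few genes do not set the region apart. Between the first and the last member lay 171 other annotated genes, mostly pseudogenes and non-coding RNAs and including the 4 zinc finger genes just named, of which 130 had no read and 5 were tested. These were AC078899.1, RPL34P34, SNX6P1 and RPS27P29, which are processed pseudogenes, and ZNF826P, a transcribed copy of a zinc finger gene. ZNF826P had a mean of 0.771 CPM in the control and 0.465 CPM in the MCM7 siRNA group, with a log2 fold change of -0.82 and an adjusted p of 0.147. Outside the cluster, none of the 9 tested genes of 14 on the telomeric side and none of the 6 tested genes of 7 on the side of the long arm was called, and their medians were -0.0017 and -0.011.

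A read in a stretch that belongs to 2 genes of one strand may be counted for neither. Whole gene spans, introns included, overlapped another gene on the same strand for 15 members, of which 7 were tested. For the 12 other tested members there was no such overlap. Whether exons overlap, where reads are counted, was not determined. The counts of ZNF98, ZNF492, ZNF66 and ZNF676 are uncertain for the further reason that over 10% of their windows have an exact copy elsewhere, and none of these 4 was tested.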

How the data were processed

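Stranded libraries of poly(A)+ RNA were sequenced from 1 end. According to the submitters' processing notes, bcl2fastq 1.8.4, TopHat2 2.1.0, featureCounts 1.5.0 and GRCh38 were used, and the methods state that reads were kept where they mapped uniquely to annotated loci and were counted by strand. The authors deposited raw read counts per gene, RPM values (the counts scaled to a common library total) and RPKM values (the RPM over 1 length per gene). 

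Counts were filtered with filterByExpr and tested in edgeR 4.0.16 by quasi-likelihood (TMM scaling, group alone, two-sided, Benjamini-Hochberg, threshold 0.05). Alternatives used DESeq2 1.42.0 and limma 3.58.1 on log2 of the deposited RPM plus 0.5 or 0.1, in R 4.3.3. The RPKM served for levels between genes. The scripts were tested on simulated data. Gene positions and 50-nt windows came from the canonical transcripts of GENCODE 44. The windows were matched on both strands to genes of the count table, leaving out the member itself and genes that overlap it. Promoters came from RefSeq. Python 3.11.15 was used, with numpy 2.4.6, pandas 2.3.3, scipy 1.17.1 and matplotlib 3.10.9.

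The rule for the members used name and position alone, but the members and lists were chosen with earlier results of these data known. All 33 members could be named. Values in every library were given for called members, for members at 1 CPM or more whose groups did not overlap and for the 5 highest by RPKM, and, chosen after their values were seen, for ZNF91 and ZNF85. Up to 4 called genes per other list were named, and ZNF571 and ZNF768 were added after their values were seen. TRIM28, SETDB1 and the tested genes between the members were named outside this rule, as they were not called. Reads in every library were also given for ZNF626, the most read of the members not tested. A missing adjusted p of DESeq2 was left missing.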

Additional observations from a re-analysis of the deposited data

How the results depend on the processing

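Besides the main fit, 16 settings were run: DESeq2, other size factors, library totals alone, no filter, at least 1 CPM in at least 3 libraries, limma with both pseudocounts, the replicate block, each library left out, and the calls of edgeR and DESeq2 combined with and without a 1.5-fold limit. In every one of them 0 members were called. For the combined calls this followed from the edgeR result and is no further check. Between 10 and 30 members were tested. The smallest adjusted p lay between 0.104 (ZNF101, without MCM7 siRNA replicate 2) and 0.862 (DESeq2). DESeq2 gave an adjusted p for only 5 members, so that 14 could not be called there. The median log2 fold change of the members was -0.0578 with the filter of at least 1 CPM, which tested 10 members, and -0.0869 to 0.0514 when 1 library was left out, which tested 19 to 21 members. Over the same 19 members the latter range was -0.0551 to 0.0514. For 10 of the 19 members the sign was the same in each of the 13 or 14 settings that gave them a fold change. The median without a filter was 0.0433.

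Deviations from the group means correlated at -0.0071, -0.019 and -0.013 between libraries of the same replicate number. Between libraries of different numbers the values were -0.015 to 0.028. Whether the samples were prepared in pairs cannot be told from these values. With the replicate block 0 members were called, the smallest adjusted p was 0.171 and the median was 0.0997. Summing rows of 1 symbol was not run, since 0 members stood on several rows. No pair of libraries agreed within sampling noise. Depth limits these results: 9 members had a mean of at least 1 CPM and 2 of at least 2 CPM.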
